A study of Mus musculus with 8 samples.

Results

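Ttc14, the CLK kinases Clk1, Clk2, Clk3 and Clk4, the SR proteins Srsf2, Srsf5 and Srsf6 and the TRA2 proteins Tra2a and Tra2b were followed in mouse embryonic stem cells (mESCs) exposed to morphine. These 10 genes were chosen by measured values, since Ttc14 was selected on its change between the control and morphine RNA libraries described here, and the others were joined to it as regulators of splicing annotated with retained introns or poison exons. The differences between conditions given for them are therefore descriptions, not tests. A locus of the RNA-Seq count table was taken for a gene when that gene was the most frequent name among its exon entries, which gave 9 loci of the 44396 in the table, and all 9 were among the 20350 loci tested. Clk2 had no locus of its own. Its exons were assembled into 1 locus on chromosome 3 with those of the next gene, Scamp3, where 53 exon entries were named Gm45927, 32 Clk2 and 26 Scamp3, and 65 had no name. The values of that locus are given here as those of the Clk2-Scamp3 locus.

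The cells carried an Oct4-GFP reporter and were grown without feeders on gelatin. Control cells received 0.9% NaCl and treated cells 10 µM morphine, both for 24 h. Each condition had 2 poly(A) RNA-Seq libraries and 2 ChIP-Seq libraries for H3K27me3, the trimethylated histone H3 lysine that marks Polycomb-repressed chromatin. The labels name neither separate cultures nor batches. The study describes the ChIP replicates as biological, and for the RNA libraries the spread between replicates may be technical.

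SR proteins are RNA-binding splicing factors with a domain rich in arginine and serine, and the TRA2 proteins are SR-like activators of exon inclusion. CLK kinases phosphorylate that domain in the nucleus and so set where SR proteins lie and how they act. Many of these genes limit their own output by splicing: an intron is kept in the transcript, which then stays in the nucleus, or a poison exon with an early stop codon is included and the transcript is degraded by nonsense-mediated decay. TTC14 is a protein with tetratricopeptide repeats whose role in cells is little known.

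The splice sites of introns that assembled exons ran across show the sequence in question. Each donor is printed as the last 3 bases of the exon and the first 6 of the intron and each acceptor as the last 20 bases of the intron and the first 3 of the exon, from GRCm38 (mm10), 5′ to 3′ on the strand of the gene, with the GT and AG of the intron ends in capitals. Ttc14 is shown for the pair of introns that its longest assembled exon ran across, 905 and 737 bp long, on the plus strand. Clk1 (minus strand) and Clk4 (plus strand) are shown because assembled exons of these paralogs ran across introns with the same donor.
Ttc14 905 bp intron donor, chr3:33806931-33806939: cagGTgatt
Ttc14 905 bp intron acceptor, chr3:33807819-33807841: cgatatctgggttctaaaAGaaa
Ttc14 737 bp intron donor, chr3:33807946-33807954: aagGTaaac
Ttc14 737 bp intron acceptor, chr3:33808666-33808688: agccaactaatttttttaAGgct
Clk1 387 bp intron donor, chr1:58420115-58420123: gatGTatag
Clk1 387 bp intron acceptor, chr1:58419731-58419753: taattattcctcttttttAGatg
Clk4 391 bp intron donor, chr11:51273166-51273174: gatGTatag
Clk4 391 bp intron acceptor, chr11:51273540-51273562: ctttctctcccttactttAGatg
The donors of the Clk1 387 bp intron and the Clk4 391 bp intron were identical over all 9 bases, and their acceptors matched at 13 of 23 bases.

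Exons of transcripts annotated for nonsense-mediated decay that touch no exon of a protein-coding transcript were present in the assembly in Clk4, Tra2a and Tra2b. The Clk4 exon is printed whole, and the TRA2 exons (both genes on the minus strand) from their first base to the first in-frame stop codon, which is in capitals.
Clk4 exon of 59 bp, chr11:51270537-51270595: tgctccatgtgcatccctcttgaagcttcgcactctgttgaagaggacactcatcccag
Tra2a exon of 306 bp, its first 144 bases, chr6:49252965-49253108: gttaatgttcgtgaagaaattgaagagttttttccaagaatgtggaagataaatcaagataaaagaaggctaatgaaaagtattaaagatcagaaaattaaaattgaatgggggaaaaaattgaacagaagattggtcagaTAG
Tra2b exon of 276 bp, its first 81 bases, chr16:22259181-22259261: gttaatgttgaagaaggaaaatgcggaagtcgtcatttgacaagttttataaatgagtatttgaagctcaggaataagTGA
The Tra2a and Tra2b exons began with the same 9 bases before their first difference.

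The RNA libraries held 25081266 to 29531096 counted reads, and replicates differed by more than counting error, with a chi-square over loci of 6.74 per degree of freedom between the control libraries and 3.88 between the morphine libraries. Markers of mESCs such as Pou5f1, Nanog and Zfp42 summed to 5410 to 5570 CPM (counts scaled to the library size) over 10 genes. Lists for primitive endoderm, early lineages, trophectoderm and cells resembling the 2-cell embryo summed to 11.6 to 46.4 CPM. The fibroblast list summed to 1580 to 1650 CPM, of which Fn1 gave 1560 to 1620 CPM and Col1a1 2.81 to 3.40 CPM. No marker gene of these lists passed the threshold between conditions.

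Ttc14 RNA rose after morphine. It was measured at 47.3 and 46.3 CPM in the control libraries and at 77.7 and 88.4 CPM in the morphine libraries, from 1299, 1362, 1966 and 2488 reads. Both morphine libraries lay far above both controls, and the gap between conditions was wider than that within either. The fold change was 1.78, or 0.83 on the log2 scale (SE 0.067, 95% interval 0.68 to 0.98, n = 2 per condition, edgeR quasi-likelihood fit). In bulk RNA, a change in the number of cells that hold a transcript and a change in the amount per cell cannot be told apart.

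Clk1, whose transcripts are a textbook case of intron retention, was measured at 83.0 and 84.2 CPM in control cells and 75.9 and 78.4 CPM after morphine. Both morphine libraries were lower, by a log2 difference of -0.11 (SE 0.053, 95% interval -0.23 to 0.00060). Clk3 differed in the other direction, with 39.1 and 42.0 CPM in control cells and 45.6 and 44.3 CPM after morphine, a log2 difference of 0.15 (SE 0.063, 95% interval 0.010 to 0.28), which became 0.0936 without control replicate 1. For Clk4 the conditions overlapped, with 38.7 and 38.3 CPM against 38.1 and 40.9 CPM. Its log2 difference was 0.04 (SE 0.064, 95% interval -0.10 to 0.18). The Clk2-Scamp3 locus was at 97.4 and 105 CPM in control cells and 114 and 108 CPM after morphine, 0.13 on the log2 scale (SE 0.057) and 0.072 without control replicate 1, and the part of this that came from Clk2 cannot be told apart from that of Scamp3. The kinases thus lay on both sides of no change, although Clk1 and Clk3 turned sign once trends over locus length and GC content were removed.

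Srsf2, an SR protein that recognises exonic enhancers, was at 476 and 473 CPM in control cells and 528 and 489 CPM after morphine, a log2 difference of 0.10 (SE 0.047, 95% interval -0.0036 to 0.20), and 0.0418 without morphine replicate 1 or 0.154 without morphine replicate 2. Srsf5 stood at 259 and 264 CPM against 260 and 256 CPM, with overlapping conditions and a log2 difference of -0.02 (SE 0.044). Srsf6 was at 361 CPM in both control libraries and at 366 and 373 CPM after morphine, 0.03 on the log2 scale (SE 0.042, 95% interval -0.059 to 0.13), and 0.0189 without morphine replicate 2. The log2 differences of the 3 SR proteins thus lay between -0.02 and 0.10, and that of Srsf5 turned positive with total-count scaling and with the length and GC trends removed.

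Tra2a and Tra2b had lower values after morphine, in direction also under each alternative run, with -0.0277 and -0.121 on the log2 scale once length and GC trends were removed. Tra2a was at 235 and 219 CPM in control cells and 197 and 207 CPM after morphine, a log2 difference of -0.17 (SE 0.051, 95% interval -0.28 to -0.055). Tra2b was at 134 and 129 CPM in control cells and 103 and 118 CPM after morphine, a log2 difference of -0.25 (SE 0.065, 95% interval -0.39 to -0.11). Neither passed a false discovery rate (FDR) of 0.05 in the quasi-likelihood fit, which called 0.904% of all tested loci lower. With every library kept, Tra2b passed by the exact test (2.3% called lower), the likelihood ratio test (2.42%) and DESeq2 (5.02% of 7330 loci with an adjusted p). Tra2b also passed with the replicate block (3.39%), the length trend removed (0.821%) and named loci only (3.38%). Both passed with no filter on low counts (3.42%). Without morphine replicate 1 the log2 difference of Tra2b was -0.155.

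**Figure D1:**
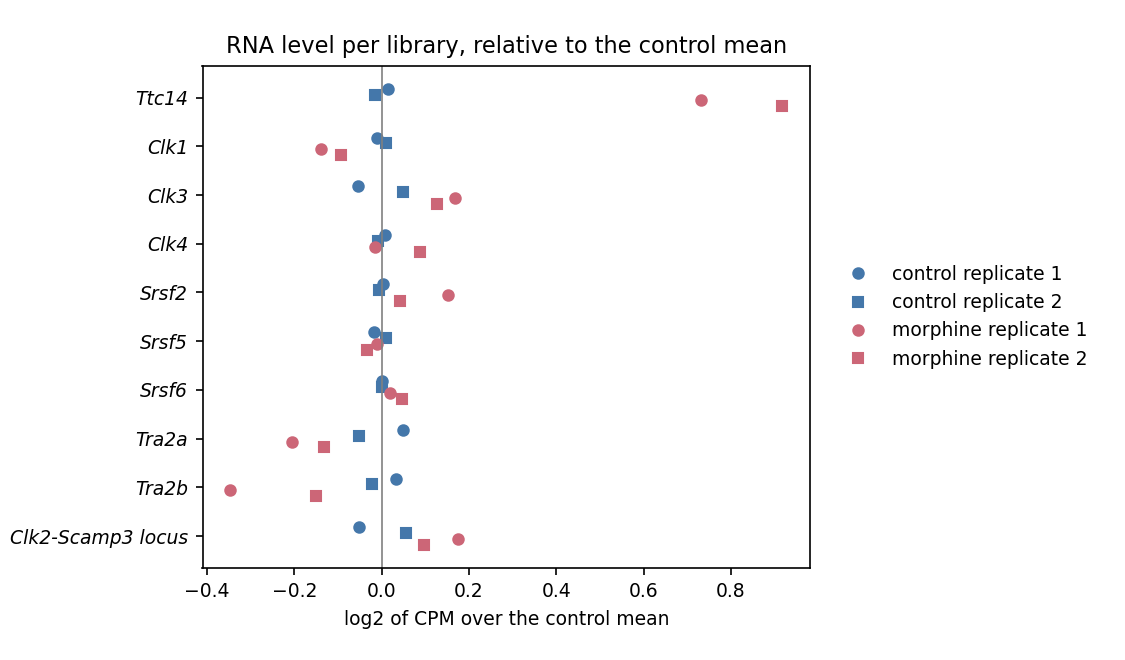
RNA level of the 9 loci and of the Clk2-Scamp3 locus in each library, as log2 of CPM over the mean of the control libraries (horizontal axis; circles replicate 1, squares replicate 2, blue control, red morphine). Both morphine points of Ttc14 stand apart on the right, while those of Tra2a and Tra2b lie to the left of their controls.

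The other 8 loci had no common direction. Of them, 4 had the sign of Ttc14 and 4 the opposite sign (3 to 5 had the sign of Ttc14 over the alternatives), their log2 differences ran from -0.25 to 0.15, and their median was 0.0067 beside 0.0013 over all tested loci. The highest upper bound among their 95% intervals was 0.28, for Clk3, and the lower bound for Ttc14 was 0.68. At an FDR of 0.05, 1 of the 9 loci was called higher (Ttc14) and 0 lower by the quasi-likelihood test, beside 0.614% of all tested loci called higher and 0.904% lower. An unadjusted p below 0.05 was reached by 3 of the other 8 loci, beside 20.5% of all tested loci. In 4 of the 9 loci both morphine libraries were above both controls, beside 26.0% of all tested loci, and in 3 both were below, beside 26.8%. These counts rest on the contrast used to choose the genes, and nothing is read from them.

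Relative to exon length, Srsf2 was the most abundant in control cells at 237 CPM per kb, followed by Srsf6 at 102, Srsf5 at 86.8, Tra2b at 54.5, Tra2a at 37.7, Clk1 at 20.6, Clk3 at 12.6 and 13.5 in its 2 libraries, Clk4 at 9.30 and Ttc14 at 4.85 CPM per kb. The control replicates of neighbours in this order did not overlap. After morphine Ttc14 reached 8.06 and 9.16 CPM per kb, still below Clk4 at 9.20 and 9.89 CPM per kb. Its length includes an exon of 8045 bp that made up 83.4% of the counted bases, so the level per kb depends on how that exon was assembled.

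The rise of Ttc14, on which it was selected, is described here beside loci of like base composition. Across tested loci the log2 difference was higher where exons were richer in GC (Spearman correlation 0.485 across loci, which share the same 4 libraries). Ttc14 exons were 37.9% GC, beside a median of 49.7% over all tested loci, and the 534 loci within 1 percentage point of Ttc14 had a median log2 difference of -0.21. Ttc14 ranked 7th from the top among these neighbours. With trends over locus length and GC content removed, its log2 fold change was 1.07. Clk1, at 37.8% GC, Tra2b, at 41.5%, and Tra2a, at 43.0%, lay on the GC-poor side with Ttc14 but had lower values after morphine. Srsf5, at 41.6%, was near 0. Clk4, at 40.8%, and Srsf6, at 43.1%, were GC-poor with small positive values, which became 0.20 and 0.15 with those trends removed, and Clk3, at 58.0%, lay on the GC-rich side. With the same trends removed Clk1 turned to 0.0973, Clk3 to -0.00135 and Srsf5 to 0.118, while Tra2a became -0.0277 and Tra2b -0.121. The directions of Clk1, Clk3 and Srsf5 and the sizes for Clk4, Srsf6, Tra2a and Tra2b thus depend on that step.

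**Figure D2:**
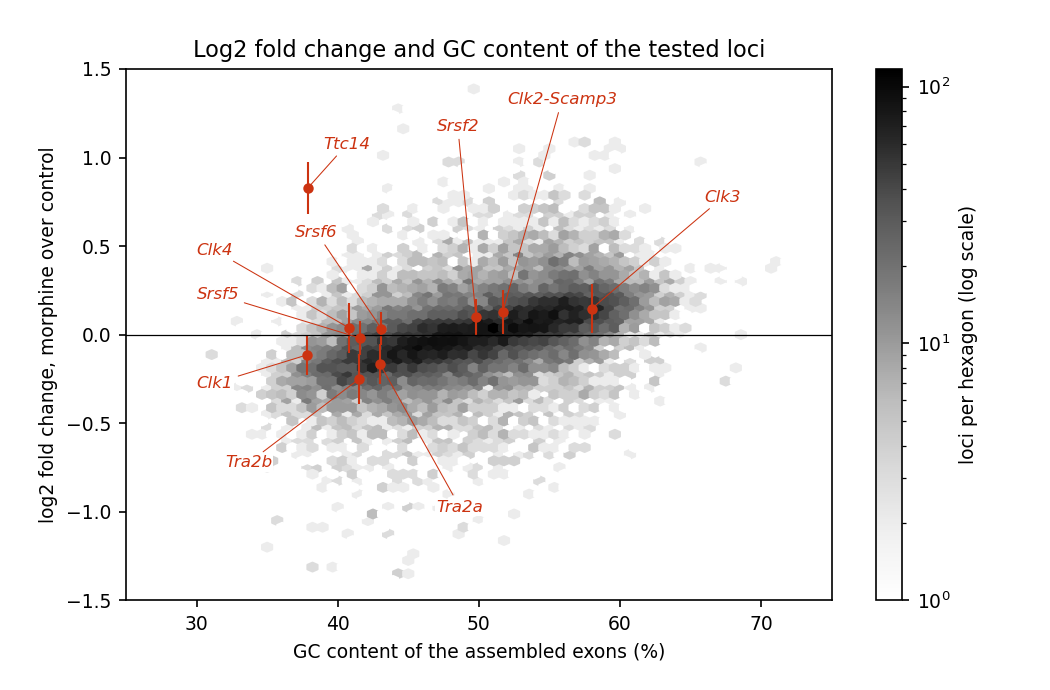
Log2 fold change of morphine over control (vertical axis) against the GC content of the assembled exons in percent (horizontal axis). Grey hexagons count tested loci on a log scale, and red points mark the 9 loci and the Clk2-Scamp3 locus with 95% intervals. Loci beyond the drawn ranges are left out. The grey cloud slopes upward with GC content, and Ttc14 at 37.9% GC lies above most loci of its GC content.

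One assembled structure was shared by all RNA libraries, and it held introns of most of these genes within exons. The study assembled transcripts with a reference annotation, so such exons may come from that annotation. Whether reads lay across these introns in these cells was not examined. An assembled exon ran across 13 of the 114 annotated introns of protein-coding transcripts of the 10 genes (11.4%), beside 3.0% of 174795 introns over 13211 other genes. Such introns were found in 7 of the 10 genes, beside 22.4% of the other genes. Ttc14 had 3, of 145, 905 and 737 bp, and the last pair lay inside the 8045 bp exon (chr3:33806816-33814860). Clk1 had 2, of 387 and 871 bp, and Clk4 had 3, of which a 1537 bp intron contained the others, of 1055 and 391 bp. Srsf5 had 2, of 1229 and 21 bp, and Clk2, Clk3 and Srsf2 had 1 each, of 346, 615 and 502 bp. Srsf6, Tra2a and Tra2b had none. All 10 genes were annotated with both a nonsense-mediated decay transcript and a retained-intron transcript, beside 22.1% of other genes. Those annotations were a reason for choosing them, so the share of introns within exons is not independent of that choice. A decay-transcript exon that touches no protein-coding exon was assembled in 3 of the 10 genes, those printed above, beside 4.39% of other genes. Counts were made per locus, so reads from introns within exons, poison exons and coding exons of a member cannot be told apart in these values.

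Overlapping loci share part of the counted sequence with 2 members. The long Ttc14 exon overlapped 1235 exonic bp, or 12.8% of the Ttc14 length, with Ccdc39, a cilia gene on the opposite strand. The whole Ccdc39 locus had 186 and 172 reads in control cells and 176 and 212 after morphine (log2 difference 0.20, SE 0.125), beside the 1299 to 2488 reads of Ttc14. Srsf2 overlapped 562 exonic bp (28.0%) with Mettl23 and Mfsd11, whose log2 differences were -0.02 (SE 0.052) and 0.23 (SE 0.062). Library preparation was stranded but whether counting used the strand is not given in the sources used here, so reads of these pairs may be shared. A pair of unnamed loci lay in introns of Tra2b. The larger of them had 120 and 118 reads in control cells and 68 and 93 after morphine, a log2 difference of -0.48 (SE 0.17), in the direction of Tra2b itself. Among the genes around Ttc14, Fxr1 had a log2 difference of -0.13, Dnajc19 of 0.07 and Sox2 of -0.05, and none passed the threshold. Loci of Edc3, BC049762, Gm20337, Hcn3 and Fam189b, which lay within 5 kb of a member without overlapping it, had log2 differences of -0.01 to 0.46 and did not pass it either, and Slc10a1, with at most 5 reads per library, was not tested.

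Few of these genes had an H3K27me3 peak at the promoter, and the share was near or below that of other loci. A peak lay within 1 kb of an annotated start site in 1 and 2 of the 10 genes in the control libraries and in 2 and 2 in the morphine libraries, beside 22.5% to 23.6% of 16653 other tested loci per library. Clk3 had a promoter peak in all 4 libraries, mostly upstream of the gene, with scores of 114 and 169 in control and 82.2 and 94.5 in morphine libraries. The score is the caller's p-value on a negative log10 scale, multiplied by 10, so a higher score is a stronger call, and no peak scored below 50. The other promoter peaks were each found in a single library, Ttc14 in control replicate 2 (score 66.4), Tra2a in morphine replicate 1 (53.2) and Srsf2 in morphine replicate 2 (73.4). Because the exact read depth of each ChIP library is not given in the sources used here, scores were not compared between libraries. With 2 libraries against 2, no 2-sided exact permutation test could give a p below 0.33.

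A higher-scoring H3K27me3 peak lay inside the long exon of Ttc14. It was called in every library, between 8.4 and 10.5 kb from the annotated start of the gene (chr3:33808404-33810215 in control replicate 1). Among all peaks of its own library its score stood at the 98.1st and 99.3rd percentile in control and the 98.6th and 96.4th in morphine libraries. A peak wholly within the gene in all 4 libraries was found for 10.4% of other tested loci. Both morphine libraries had a further peak between 2.7 and 5.2 kb from the start where neither control library had one, but its scores, 62.8 and 59.5, were close to the lowest a peak could have, and such a site was found within 1.08% of other tested loci. Peaks of high score also lay 3.7 to 4.0 kb past the end of Srsf6 and 6.4 to 6.5 kb past the end of Tra2a in all 4 libraries. The Tra2a peak was 65.3% to 69.2% repeat-masked sequence. Another lay 7.9 to 8.3 kb past the end of Clk4 in all 4 libraries. Clk2 had an upstream peak within 10 kb in morphine replicate 1 alone (score 109), and within that distance Clk1, Srsf5 and Tra2b had none.

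**Figure D3:**
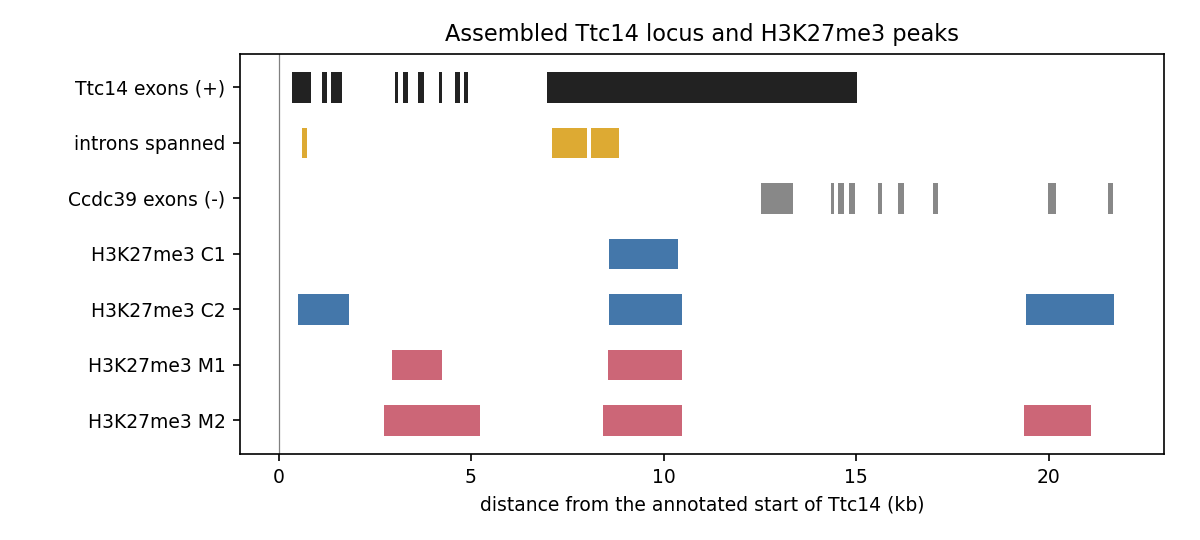
Assembled exons of Ttc14 (black), annotated introns they ran across (yellow), assembled exons of the antisense gene Ccdc39 (grey) and H3K27me3 peaks in the control (C1, C2, blue) and morphine (M1, M2, red) libraries, by distance in kb from the annotated start of Ttc14. A peak between 8.4 and 10.5 kb lies within the longest exon in all 4 libraries.

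Splicing genes outside the 10 were examined through lists that, like the members, were chosen with earlier results of these data known. Their counts are therefore descriptions. Of 117 genes in 7 lists, 116 were tested, 0 passed an FDR of 0.05 as higher by the quasi-likelihood test and 4 as lower, beside the 0.614% and 0.904% of all loci. The median log2 difference was -0.065, with 35 genes above 0 and 81 below, and 46 had an unadjusted p below 0.05, beside 20.5% of all loci. None reached the value of Ttc14. DESeq2 called 1 higher and 12 lower, beside 3.25% and 5.02% of the 7330 loci to which it gave an adjusted p. Over the alternatives the number called lower ran from 0, without control replicate 1 (0.945% of all loci lower) or morphine replicate 1 (0.0141%), to 21 with no filter on low counts (3.42%).

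Srsf1, the founding SR protein, was at 542 and 506 CPM in control cells and fell to 442 and 459 CPM after morphine (log2 fold change -0.22, SE 0.047, edgeR adjusted p = 0.0476). Dyrk1a, a kinase that phosphorylates splicing factors, fell from 86.4 and 80.6 CPM to 68.6 and 68.3 CPM (-0.29, SE 0.056, edgeR adjusted p = 0.0394). Both morphine libraries were below both controls in each. Hnrnph3 fell from 55.5 and 54.8 CPM to 46.1 and 44.0 CPM (-0.29, SE 0.058, edgeR adjusted p = 0.0405). Syncrip, another hnRNP protein that binds RNA, fell from 323 and 314 CPM to 265 and 281 CPM (-0.22, SE 0.047, edgeR adjusted p = 0.0474). These calls were close to the threshold. All 4 were lost without control replicate 1, without morphine replicate 1, at an FDR of 0.01 and with length and GC trends removed, where Syncrip turned to 0.0231, whereas Hnrnph3 stayed between -0.324 and -0.259 and Dyrk1a between -0.329 and -0.175 over all 16 alternatives. Srsf1 ranged from -0.259 to -0.0383. Those of Dyrk1a, Srsf1 and Syncrip were also lost with the length trend alone removed, and those of Dyrk1a and Hnrnph3 without morphine replicate 2.

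By list, 6 of 8 other SR proteins, 8 of 10 tested SR and spliceosome kinases, 18 of 25 SR-related proteins and 22 of 26 hnRNP proteins had negative values. All 7 other genes known for detained introns also did, and none of them passed the threshold. Of 30 core spliceosome genes 17 were above 0, and Sf3b1, a subunit of the U2 particle, had the largest difference (-0.20, SE 0.049). Of 10 nonsense-mediated decay factors 7 were below 0, and Smg9 had the largest difference, 0.26 (SE 0.090). Luc7l2, a U1-associated protein, led the SR-related list at -0.20 (SE 0.052), and Srsf12 the other SR proteins at 0.61 (SE 0.287), the latter at only 0.728 to 1.28 CPM. With the length and GC trends removed, the median over the 116 genes was 0.014, so the balance of negative values depends on that step.

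**Figure D4:**
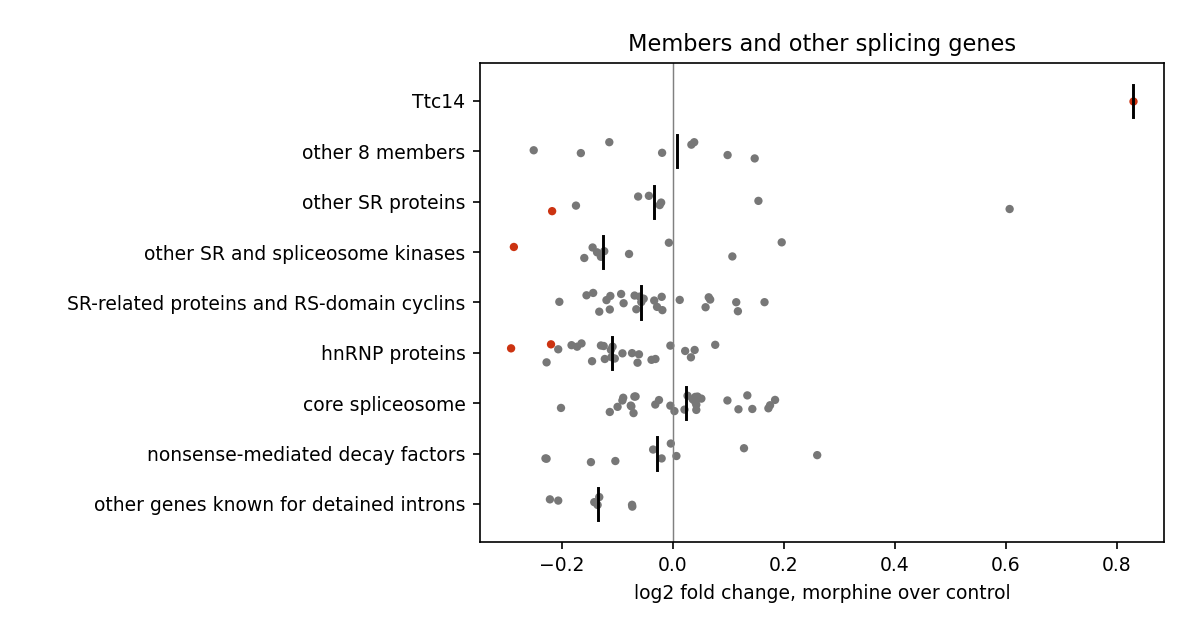
Log2 fold change of morphine over control (horizontal axis) for Ttc14, the other 8 loci and the genes of 7 splicing lists (1 point per gene, red where the adjusted p was 0.05 or less, black bar the median). Ttc14 lies at 0.83, to the right of all genes in the lists, whose highest value is 0.61.

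The 5 named loci whose 4 library values lay closest to the pattern of Ttc14 included no gene of the splicing lists. By Euclidean distance between mean-centred log2 CPM values, among 9381 candidates, they were 4930483K19Rik (distance 0.124), Aacs (0.261), an acetoacetyl-CoA synthetase, Mvd (0.291), a mevalonate pathway enzyme, Ripply3 (0.306), a transcriptional repressor, and Ppm1j (0.307), a protein phosphatase. Aacs, for example, was at 51.6 and 54.1 CPM in control cells and 83.9 and 80.8 CPM after morphine. Among the members Clk3 lay nearest to Ttc14, at rank 1254, and Tra2b farthest, at rank 8975. Ttc14 was selected on these same values, and the members and loci with a mean below 10 CPM were left out of the candidates. No splicing-list gene reached the log2 difference of Ttc14, so nothing is read from the absence of such genes here.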

How the data were processed

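RNA-Seq counts per locus were deposited by the authors, who aligned reads to mm10 with HISAT2 2.1.0, assembled transcripts with StringTie 1.3.6 and counted with featureCounts 1.6.4. The strand and multimapping settings are not given in the sources used here. H3K27me3 peaks were deposited per library with a score, as called by the authors with MACS (p-value cut-off 1e-05) after Bowtie2 2.3.5.1 alignment. The methods give a minimum sequencing depth, but the depth of each ChIP library is not given in the sources used here. Each locus came with its exon length, equal to the union of its exons in all 44396 loci.

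The members and gene lists were chosen with earlier results of these data known. Loci were filtered with filterByExpr, scaled by TMM and fitted with edgeR 4.0.16 (quasi-likelihood test, condition only) in R 4.3.3. Benjamini-Hochberg adjustment ran over all 20350 tested loci, with an FDR threshold of 0.05. The script was tested on simulated data. CPM values use TMM library sizes. SEs are those of the edgeR coefficient, and intervals are 95%. Introns, exons and start sites came from GENCODE M21, and GC content and sequences from GRCm38.p6, the same build as mm10. The text names all members, splicing-list genes passing the threshold, the largest difference of each splicing list (for 1 list it is not reported here), the 5 loci nearest to Ttc14 in pattern (mean CPM of at least 10) and loci that overlap a member or lie within 5 kb of it. Same-numbered replicates did not deviate together (correlation 0.0364), so they were not paired.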

Additional observations from a re-analysis of the deposited data

How the results depend on the processing

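Ttc14 stayed higher under all 16 alternatives, with log2 fold changes of 0.733 to 1.07 (0.733 to 0.918 when 1 library was left out). These refits use the counts on which Ttc14 was selected, so they are no independent support. It stayed past the threshold wherever every library was kept. The number of loci called then ranged from 24 at an FDR of 0.01 to 1657 with no filter on low counts. With 1 library left out, its condition has 1 library, and the spread comes from the other condition alone. None of the other 8 loci was called higher under any alternative that kept every library. Called lower was 1 of these 8 (Tra2b) by the exact test (2.3% of all tested loci called lower), the likelihood ratio test (2.42%) and DESeq2 (5.02%, of the 7330 loci with an adjusted p). Tra2b was also called with the replicate block (3.39%), the length trend removed (0.821%) and named loci only (3.38%). With no filter 2 were called lower, Tra2a and Tra2b (3.42%). Splicing-list genes called higher numbered 1 by DESeq2 (3.25% of the 7330 loci with an adjusted p), 2 with no filter (2.02% of all tested loci), 2 with length and GC trends removed (0.300%) and 0 to 3 with 1 library left out (0.0471% to 3.14%). Those called lower, with the share of all tested loci called lower in parentheses, numbered 12 by DESeq2 (5.02%, of the 7330 loci with an adjusted p), 21 with no filter (3.42%), 9 with the replicate block (3.39%), 1 with the length trend removed (0.821%), 1 with length and GC trends removed (0.192%), 14 among named loci only (3.38%), 0 at an FDR of 0.01 (0.0442%) and 0 to 13 with 1 library left out (0.0141% to 4.53%). With length and GC trends removed, the median of the other 8 loci was 0.0909 and that of the splicing genes 0.014, and the sign turned for Clk1 (0.0973), Clk3 (-0.00135) and Srsf5 (0.118). Srsf5 also turned with total-count scaling (0.000154) and without control replicate 2, where leaving out 1 library gave -0.0375 to 0.000385, and Clk4 turned without morphine replicate 2, with a range of -0.015 to 0.0885. Genes with a promoter peak in both morphine libraries numbered 2 with a 3 kb window, and 0 with a score of at least 100 or with most of the peak required to lie in the window. Those with a peak in any library then numbered 1 and 2, and 3 to 4 with 1 library left out, and in both control libraries 0 with most of the peak required. Beyond the length and GC trends and the sample sets, the cause was not tested.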
